A study of Mus musculus with 79 samples.

Results

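Artemin and its relatives are the ligands of the GDNF family, and the genes described here are Artn, Gdnf and Nrtn, which encode ligands, Gfra1, Gfra2 and Gfra3, which encode their GPI-anchored co-receptors, and Ret, which encodes the receptor tyrosine kinase that all of them share. These 7 genes were chosen by their symbols, and their rows are 7 of the 31350 in the table of whole-lung array values. Where a symbol had several rows, the rule took the row with the highest mean intensity, but each of the 7 had 1 row, so no measured value selected among rows. The family was singled out with results of these data already known, so the p values below describe the fits and are not independent evidence that the family responds to smoke.

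Lung RNA was profiled on 79 arrays, 1 per mouse, in 16 groups of 4 to 6 mice that differed in genotype, exposure, sex and exposure duration. All mice were C57BL/6J-background littermates aged 5 to 7 weeks, either wild type (WT) or βENaC, a line that overexpresses Scnn1b (the β subunit of the epithelial sodium channel) from a transgene driven in airway secretory cells. Smoke mice received mainstream and side-stream smoke from 6 unfiltered reference cigarettes per day for 1 day or for 5 consecutive days, sham mice breathed room air in the chamber for as long, and the right lung was taken 4 hours after the final exposure. For both durations there were WT and βENaC females and males under each exposure, with 20 smoke and 20 sham mice at 1 day and 19 smoke and 20 sham mice at 5 days. The labels do not tie mice to litters, cages or exposure sessions, so litter and session cannot be told apart from the spread between mice. The study removed 1 mouse as mislabeled for smoke exposure on the basis of plasma cotinine and gene expression.

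The arrays fitted their labels. Scnn1b averaged 8.98 ± 0.214 (SD, n = 40) in WT lungs and 11.69 ± 0.0982 (SD, n = 39) in βENaC lungs on the log2 intensity scale, with no overlap, and Xist and the Y-linked genes separated the sexes. The source names of 13 of the 19 WT smoke mice call them βENaC, against their titles and genotype entries, and Scnn1b in every WT mouse was below its lowest value in βENaC mice. Markers of alveolar type 1, alveolar type 2, club and endothelial cells had mean intensities at or above percentile 76.1 of all rows. The median correlation of an array with the other 78 ranged from 0.978 to 0.992, and the 3 arrays with the lowest values were a βENaC sham male at 1 day (replicate 1), a βENaC smoke female at 5 days (replicate 3) and a WT smoke female at 5 days (replicate 2).

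As background, the ligands of this family bind mainly GFRα1 (GDNF), GFRα2 (neurturin) and GFRα3 (artemin), and each ligand and co-receptor pair then brings RET molecules together and switches on their kinase domains. The signal passes through adaptor proteins to the RAS, ERK and PI3 kinase pathways. The family is best known for keeping autonomic, enteric and sensory neurons alive and for guiding their axons. Artemin acts on sympathetic and sensory nerves that carry GFRα3, and in skin keratinocytes its gene is switched on by the aryl hydrocarbon receptor (AHR), the receptor that also drives Cyp1a1 in response to components of smoke.

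The sequences just upstream of the annotated transcription starts are shown for Artn and Gfra1, the genes whose smoke response differed between the durations, and for Gdnf (at the one of its annotated starts whose window held a motif) and Nrtn, the genes whose windows held the AHR core motif. They come from RefSeq on GRCm38.p6, run 5′ to 3′ on the gene's strand and hold the 250 bases before the start. Capitals mark the core of the xenobiotic response element bound by AHR (GCGTG, or CACGC where it lies on the other strand) and would also mark the core of the antioxidant response element bound by NRF2 (TGACNNNGC). Motifs were searched on both strands.
Artn, chr4:117929764-117930013, minus strand: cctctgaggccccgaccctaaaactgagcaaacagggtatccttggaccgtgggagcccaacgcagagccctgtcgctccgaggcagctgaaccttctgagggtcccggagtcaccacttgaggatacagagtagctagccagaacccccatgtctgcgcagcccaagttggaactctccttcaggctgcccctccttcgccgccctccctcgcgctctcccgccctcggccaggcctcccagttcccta
Gfra1, chr19:58455399-58455648, minus strand: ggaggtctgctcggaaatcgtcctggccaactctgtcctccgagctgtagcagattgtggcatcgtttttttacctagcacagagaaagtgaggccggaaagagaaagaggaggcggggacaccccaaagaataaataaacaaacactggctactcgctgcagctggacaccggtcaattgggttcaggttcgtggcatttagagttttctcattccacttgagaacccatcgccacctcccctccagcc
Gdnf, chr15:7809798-7810047, plus strand: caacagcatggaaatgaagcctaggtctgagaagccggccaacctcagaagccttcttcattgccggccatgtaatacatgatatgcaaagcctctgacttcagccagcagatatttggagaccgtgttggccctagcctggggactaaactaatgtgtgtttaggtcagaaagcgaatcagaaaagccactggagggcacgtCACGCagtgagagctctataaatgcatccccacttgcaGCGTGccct
Nrtn, chr17:56757549-56757798, minus strand: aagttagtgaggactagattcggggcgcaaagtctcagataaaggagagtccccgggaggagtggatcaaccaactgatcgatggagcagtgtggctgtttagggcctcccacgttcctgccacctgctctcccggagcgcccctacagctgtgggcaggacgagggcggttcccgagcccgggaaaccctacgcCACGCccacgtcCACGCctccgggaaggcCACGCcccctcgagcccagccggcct

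The Artn and Gfra1 windows held 0 copies of either motif. Both windows lie inside the annotated span of their gene, which runs further upstream to 117930795 for Artn and 58455946 for Gfra1. The bases upstream of these windows were not searched. The Gdnf window held 2 copies of GCGTG, 47 and 9 bases before the start counted to the first base of each match, and the window of its other start held 0. The Nrtn window held 3 copies, 55, 43 and 26 bases before the start. Gdnf was lower in smoke mice by adjusted p at 5 days, and Nrtn passed no smoke test. Of all 32851 promoter windows of this length, 28.2% held GCGTG and 10.2% held TGACNNNGC, so either motif is common, and a match is a string of letters rather than a measured binding site. The table of promoters had entries for 4 of the 7 genes (Artn, Gdnf, Nrtn and Gfra1).

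Intensities of different genes depend on their probes, so the genes were not ranked against each other. Rows for olfactory receptor genes, used mainly in the nose, show roughly where background lies on this array. The 916 olfactory receptor rows had a median of 3.29, a 95th percentile of 4.41 and a highest mean of 6.05. The Y-linked genes in females and Xist in males averaged 3.08 to 3.45. Some olfactory receptor rows may be expressed in lung, so 4.41 is a rough mark. Gfra1 (5.71 to 7.71 over the 79 mice) and Gfra2 (6.36 to 8.70) exceeded 4.41 in every mouse, and so did Gdnf (4.79 to 6.19). Gfra3, which encodes the co-receptor of artemin, stayed between 2.83 and 3.89 and below 4.41 in every mouse. Ret (3.73 to 4.87) and Nrtn (3.29 to 4.75) lay on both sides of that value. Artn was above it in 9 of the 10 male mice exposed to smoke for 1 day and in no other mouse, so its sham level lay in the background range.

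**Figure D1:**
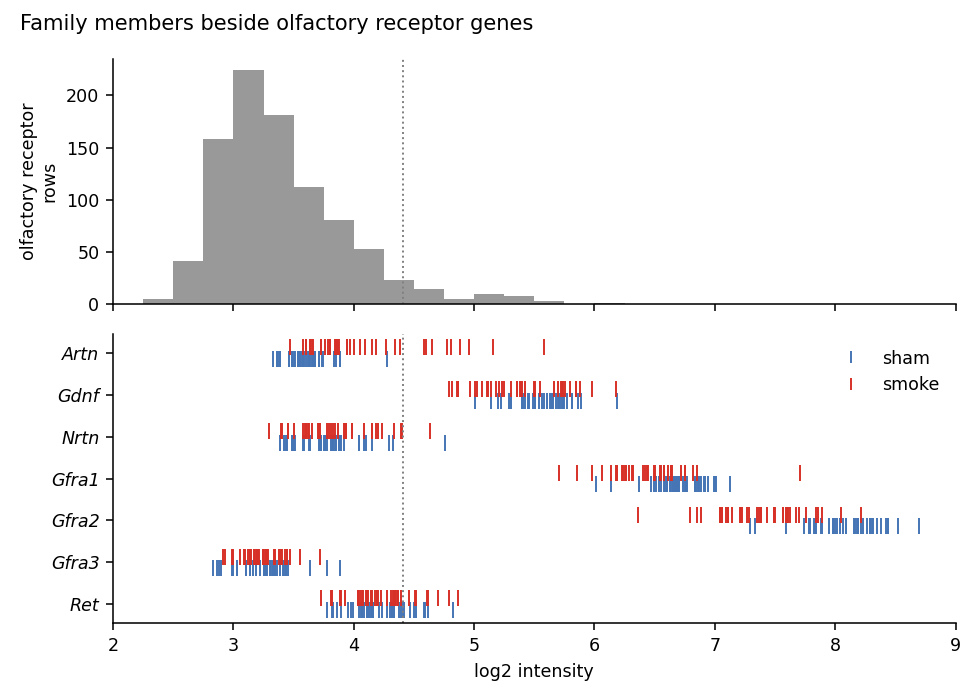
The upper panel counts the 916 olfactory receptor rows by mean log2 intensity over 79 mice, and the lower panel marks each mouse's log2 intensity of each family gene as a tick, blue for sham and red for smoke. The dotted line is the 95th percentile of the olfactory receptor rows, 4.41; Gfra1, Gfra2 and Gdnf lie wholly to its right and Gfra3 wholly to its left.

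Artn rose after 1 day of smoke, most in males, and was closer to the sham level after 5 days. In WT males at 1 day, the sham mice read 3.60, 3.37, 3.58, 3.58 and 3.65, and the smoke mice 5.16, 4.81, 4.60, 4.77 and 4.65. In βENaC males, the sham mice read 4.27, 3.85, 3.39, 3.74 and 3.52, and the smoke mice 4.39, 5.58, 4.58, 4.89 and 4.96. All 10 smoke males were therefore above all 10 sham males. In WT females, the sham mice read 3.33, 3.46, 3.71, 3.59 and 3.46, and the smoke mice 3.47, 4.09, 3.76, 4.05 and 4.26. In βENaC females, the sham mice read 3.71, 3.68, 3.54, 3.56 and 3.39, and the smoke mice 3.73, 3.64, 3.97, 4.19 and 3.94. Among females 8 of 10 smoke mice were above all 10 sham mice, so the female groups overlapped while the male groups did not.

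The additive fit (limma, with genotype, exposure and sex) put the 1-day smoke coefficient of Artn at 0.78 ± 0.10 (SE) log2, a 1.71-fold increase of intensity (adjusted p = 9.29e-07 over 31350 rows, 20 smoke and 20 sham mice), and 19 of the 20 smoke mice exceeded the mean of their own sham group. The sham mice, and the smoke females, were all below 4.41, so the fold is one of intensities against a level in the background range and does not measure the fold of the transcript. Taken group by group, the WT males gained 1.24 and the βENaC males 1.13 (exact permutation p = 0.00794 in each, the smallest that 5 against 5 mice allow). The gain of WT females was 0.42 and that of βENaC females 0.32 (exact permutation p = 0.0317 in each). The exposure by sex term was 0.82 ± 0.16 (SE), with an unadjusted p of 8.96e-06 and an adjusted p of 0.0936 (limma), so a larger rise in males did not pass over all rows. That adjusted p ranged from 0.0158 to 0.213 as each of the 40 mice was left out, and it passed without replicate 1 of the βENaC smoke males (0.0158), without replicate 1 of the βENaC sham males (0.0160) or without replicate 5 of the WT smoke females (0.0293).

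**Figure D2:**
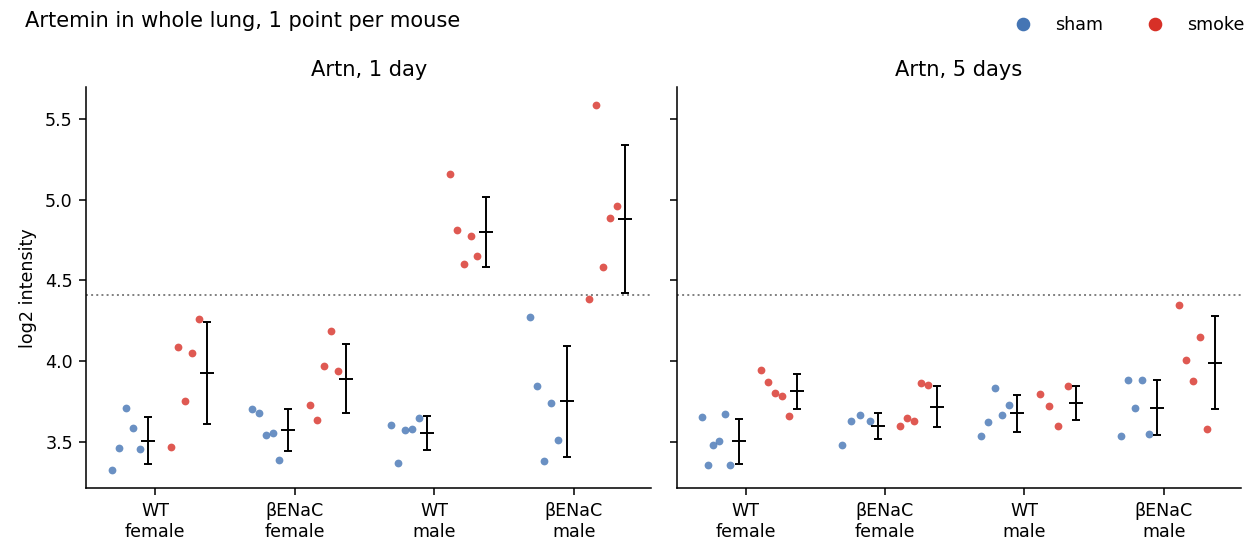
Log2 intensity of Artn in each mouse at 1 day (left) and 5 days (right) by genotype and sex, with sham mice in blue, smoke mice in red and the group mean ± SD in black. The dotted line is the 95th percentile of olfactory receptor rows, 4.41; only smoke males at 1 day, with means of 4.80 (WT) and 4.88 (βENaC), lie above it.

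After 5 days, Artn in the 20 sham mice ran from 3.36 to 3.89 with a median of 3.63, and in the 19 smoke mice from 3.58 to 4.35 with a median of 3.81. The arms overlapped, and 4 smoke mice exceeded all sham mice. The smoke coefficient was 0.20 ± 0.05 (SE), 1.15-fold (adjusted p = 0.0116, limma), which is past the p threshold and not called. Every mouse was below 4.41 at this duration, so this is a difference between intensities in the background range. In 1 fit over all 79 mice its adjusted p was 0.0878. The exposure by duration term, which tests the 5-day coefficient minus the 1-day coefficient, was -0.58 ± 0.12 (SE) with an adjusted p of 0.00236 (limma, 79 mice). Ordered by mean, βENaC and WT smoke males at 1 day came first (4.88 and 4.80) and did not differ beyond their spread. The gap of 0.81 to the third group, βENaC smoke males at 5 days (3.99 ± 0.29, SD, n = 5), was the only 1 of the 15 gaps between neighbours that exceeded the larger SD of the pair.

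Gfra1, the co-receptor gene for GDNF, fell after 1 day of smoke and was back in the sham range at 5 days. At 1 day the WT sham females read 6.84, 6.67, 6.52, 6.65 and 7.12, and the WT smoke females 6.26, 5.86, 6.06, 6.26 and 6.58. The βENaC sham females read 6.63, 6.69, 6.74, 6.94 and 6.49, and the smoke females 6.26, 6.43, 5.71, 6.18 and 6.19, so 9 of 10 smoke females were below all 10 sham females. Over both sexes, all 20 smoke mice were below the mean of their own sham group. The WT sham males read 6.70, 6.70, 6.86, 6.75 and 6.92, and the smoke males 6.58, 6.31, 6.50, 6.19 and 6.45. The βENaC sham males read 6.13, 6.47, 6.54, 6.84 and 6.70, and the smoke males 5.98, 6.29, 6.42, 6.26 and 6.14. The WT male groups did not overlap, and the βENaC male groups did.

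The 1-day smoke coefficient of Gfra1 was -0.45 ± 0.07 (SE), a 1.37-fold decrease (adjusted p = 6.81e-06, limma, 20 against 20 mice). In a homogenate of whole lung, fewer cells of a type and less RNA per cell cannot be told apart. At 5 days the 20 sham mice ran from 6.01 to 7.01 (median 6.68) and the 19 smoke mice from 6.23 to 7.71 (median 6.63), and the coefficient was -0.03 ± 0.07 (SE, adjusted p = 0.865, 95% interval -0.17 to 0.10, limma). The highest 5-day value, 7.71, belonged to the WT smoke female whose array was among the 3 of lowest correlation. The exposure by duration term was 0.42 ± 0.10 (SE, adjusted p = 0.00892, limma, 79 mice), and in a model with exposure and duration as the only factors it was 0.40 with an adjusted p of 0.0652.

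Of 5 markers of ciliated cells, 2 were lower by adjusted p at 1 day, as were 4.43% of all rows, and none at 5 days. The 2 were Dnah5, a ciliary dynein heavy chain, and Ccdc39, which helps assemble the axoneme. For exposure by duration 0 of the 5 passed (limma, adjusted p = 0.104 for Dnah5 and 0.201 for Ccdc39). A difference between the durations was therefore not shown for these markers. The smoke coefficients of Dnah5 and Ccdc39 at 1 day were -0.38 and -0.31, while Foxj1, Rsph1 and Tekt1 passed at neither duration and had coefficients of -0.04 to -0.12 at 1 day and 0.10 to 0.13 at 5 days. The mean log2 intensity of that list ran from 7.00 to 7.54 in sham and 6.87 to 7.36 in smoke mice at 1 day, and from 7.04 to 7.60 and 6.79 to 7.59 at 5 days. The part of these markers in the Gfra1 result was not tested. Since the list was chosen with earlier results of these data known, its counts are not evidence about ciliated cells. Across the 16 group means the rows most like Gfra1 were Ccdc129 (Pearson r = 0.95), 4930451C15Rik (0.95), Odf3b (0.94), Gm12474 (0.94) and Tekt4 (0.93), of which Tekt4 encodes a tektin, a structural protein of cilia and sperm tails.

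Gfra2, the co-receptor gene for neurturin, fell after both durations. At 1 day the 10 WT sham mice ran from 7.33 to 8.70 (median 8.13) and the 10 WT smoke mice from 6.79 to 7.60 (median 7.24). The 10 βENaC sham mice ran from 7.78 to 8.53 (median 8.02) and the 10 βENaC smoke mice from 7.59 to 8.21 (median 7.80). Both pairs overlapped, the βENaC pair over most of its range, and 19 of the 20 smoke mice were below the mean of their own sham group. The smoke coefficient was -0.54 ± 0.08 (SE), a 1.45-fold decrease (adjusted p = 2.31e-05, limma).

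At 5 days the groups lay further apart. The WT sham males read 7.98, 8.19, 7.89, 7.996 and 8.01, and the smoke males 7.06, 7.05, 7.61 and 6.85. The βENaC sham males read 8.29, 8.44, 8.21, 8.32 and 7.59, and the smoke males 7.23, 7.04, 6.88, 7.44 and 7.50, so within each genotype no male smoke mouse reached the lowest sham male. The βENaC sham females read 8.26, 8.09, 8.35 and 8.16, and the smoke females 7.22, 7.39, 7.56, 7.11 and 7.11. In WT females, the 6 sham mice ran from 7.29 to 8.38 with a median of 8.01, and the smoke mice read 7.28, 6.36, 7.56, 7.35 and 7.37, where 6.36 is again the array of low correlation. Only the WT females overlapped, and all 19 smoke mice were below the mean of their own sham group.

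The 5-day smoke coefficient of Gfra2 was -0.87 ± 0.09 (SE), a 1.83-fold decrease (adjusted p = 9.84e-09, limma, 19 against 20 mice), and it was 39th of 31350 rows by size. The exposure by duration term, -0.33 ± 0.13 (SE), had an adjusted p of 0.184, so a larger fall at 5 days was not shown. At 1 day the difference of smoke from sham was -0.69 in females and -0.88 in males of the WT genotype, and -0.34 and -0.24 in female and male βENaC mice. The exposure by genotype term of 0.50 ± 0.15 (SE) had an unadjusted p of 0.00225 and an adjusted p of 0.634 (limma). At 5 days the 4 differences lay between -0.75 and -0.96, and the same term was -0.14 ± 0.18 (SE, adjusted p = 1.00).

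**Figure D3:**
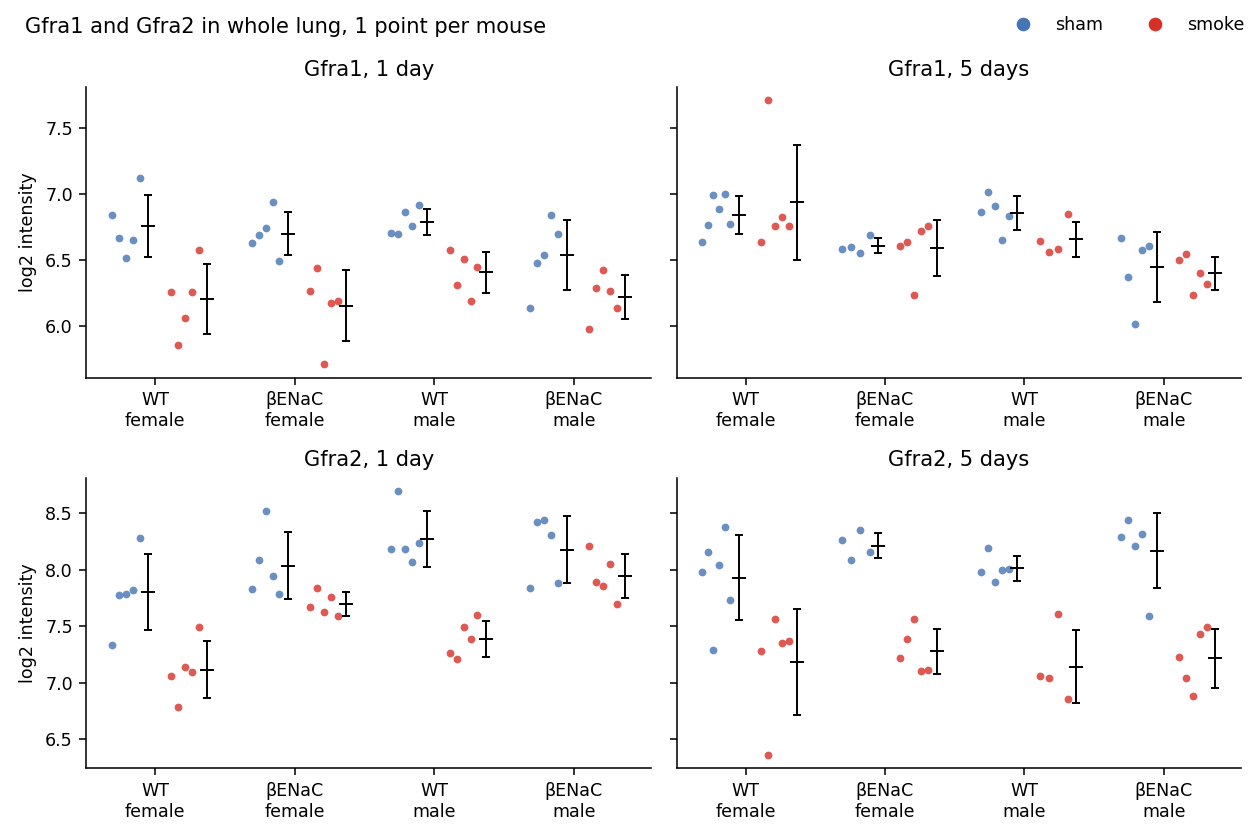
Log2 intensity of Gfra1 (top) and Gfra2 (bottom) in each mouse at 1 day (left) and 5 days (right), with sham mice in blue, smoke mice in red and the group mean ± SD in black. Gfra1 is lower in smoke mice at 1 day, with overlap (medians 6.70 sham and 6.26 smoke), and has similar medians at 5 days (6.68 and 6.63), while Gfra2 is lower in smoke mice at both durations (8.08 and 7.59 at 1 day, 8.12 and 7.23 at 5 days); 1 WT smoke female at 5 days holds both the highest Gfra1 and the lowest Gfra2.

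Many monocyte markers moved with Gfra2. Of 10 measured, 5 were called lower at 1 day and 6 at 5 days, where 0.593% and 0.577% of all rows were called lower, among them Treml4 (-0.67 and -0.73), a receptor of nonclassical monocytes. None was called higher, and Ace had coefficients of 0.05 and 0.06. Their mean log2 intensity ran from 7.54 to 8.86 in sham and 7.46 to 8.16 in smoke mice at 1 day, and from 7.76 to 8.28 and 6.97 to 7.88 at 5 days. The monocyte list was chosen with earlier results of these data known, so its counts are not evidence about monocytes. The part of these markers in the Gfra2 result was not tested. The rows most like Gfra2 over the 16 group means were Spon2 (Pearson r = 0.95), Cmtm3 (0.92), Lhpp (0.91), Gm5820 (0.91) and Acoxl (0.90), and Spon2, which encodes the secreted matrix protein spondin 2, had smoke coefficients of -0.46 and -1.22.

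Gdnf, the founding ligand of the family, passed no smoke test at 1 day and was lower at 5 days. The 20 sham and 20 smoke mice ran from 5.00 to 6.19 (median 5.63) and from 4.82 to 6.18 (median 5.61) at 1 day, with a coefficient of -0.05 ± 0.08 (SE, adjusted p = 0.756, 95% interval -0.21 to 0.10, limma). At 5 days the sham mice ran from 5.20 to 5.89 (median 5.52) and the smoke mice from 4.79 to 5.88 (median 5.20), and 9 of 19 smoke mice were below all sham mice. The coefficient was -0.31 ± 0.08 (SE, adjusted p = 0.00654, limma), 1.24-fold lower and so past the p threshold and under the fold threshold. The exposure by duration term was -0.26 ± 0.11 (SE, adjusted p = 0.266). Of 6 fibroblast markers 3 were called lower at 5 days, as were 0.577% of all rows (Col3a1 and Col1a1, which encode fibrillar collagens, and Tcf21, a mesenchymal transcription factor), and none at 1 day. Dcn and Pdgfra did not pass at 5 days, with coefficients of 0.09 and 0.08. Their list mean ran from 9.86 to 10.52 in sham and from 9.41 to 10.24 in smoke mice at 5 days, and their part in the Gdnf result was not tested. This list too was chosen with earlier results of these data known, so its counts are not evidence about fibroblasts.

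Nrtn, Ret and Gfra3 passed no smoke test at either duration. The coefficients of Nrtn, the neurturin gene, were -0.01 ± 0.08 at 1 day and 0.12 ± 0.09 at 5 days (SE, adjusted p = 0.961 and 0.560, limma). Those of Ret, the kinase, were 0.12 ± 0.07 and -0.08 ± 0.07 (SE, adjusted p = 0.393 and 0.631). Those of Gfra3, whose product binds artemin, were -0.0044 ± 0.05 and -0.02 ± 0.07 (SE, adjusted p = 0.973 and 0.932). The 95% intervals bound any change of Gfra3 intensity to -0.10 to 0.09 at 1 day and -0.16 to 0.12 at 5 days, but with intensities in the background range that bound says little about its transcript. Ret in sham and smoke mice had medians of 4.22 and 4.32 at 1 day and 4.15 and 4.12 at 5 days, and the arms overlapped over nearly their whole range. These medians were below 4.41, so the Ret intensities also say little about its transcript.

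**Figure D4:**
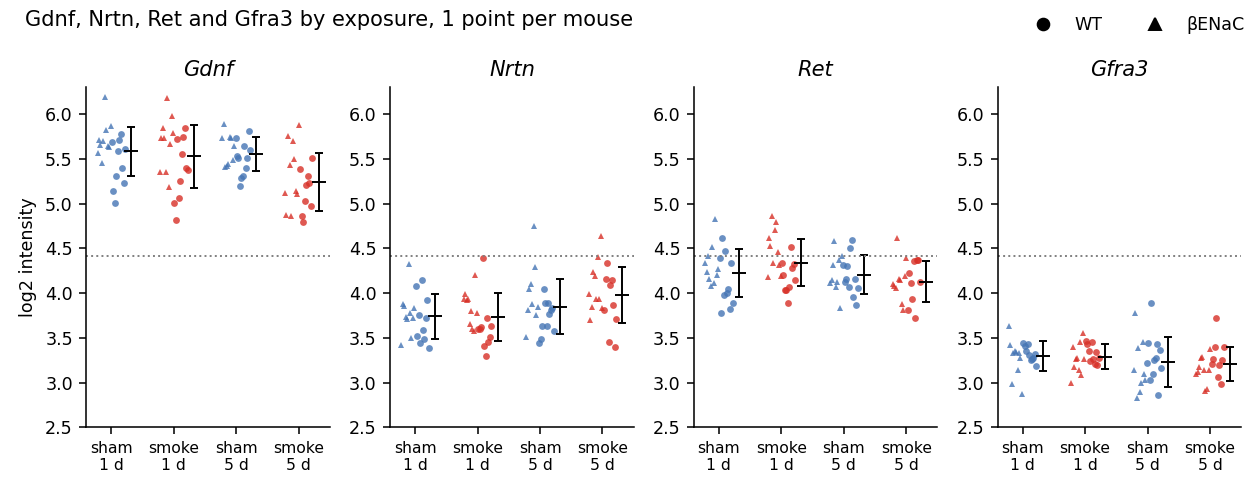
Log2 intensity of Gdnf, Nrtn, Ret and Gfra3 in each mouse by exposure (blue sham, red smoke) and duration, with circles for WT, triangles for βENaC and the arm mean ± SD in black. The dotted line is the 95th percentile of olfactory receptor rows, 4.41; the Gdnf median at 5 days is 5.52 in sham and 5.20 in smoke mice, and Gfra3 stays below the line throughout.

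Over the 7 genes, a call required an adjusted p under 0.05 and a change over 1.3-fold. For smoke, 3 of 7 were called at 1 day (Artn higher, Gfra1 and Gfra2 lower), where 1.08% of all rows were called, and 1 of 7 at 5 days (Gfra2 lower), where 1.16% were. By the p threshold alone 3 of 7 passed at each duration, where 9.45% and 6.53% of all rows did. For exposure by duration 2 of 7 passed (Artn and Gfra1), where 1.49% of rows did. Since the family was put forward with such results in view, these counts are not evidence about the family.

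**Figure D5:**
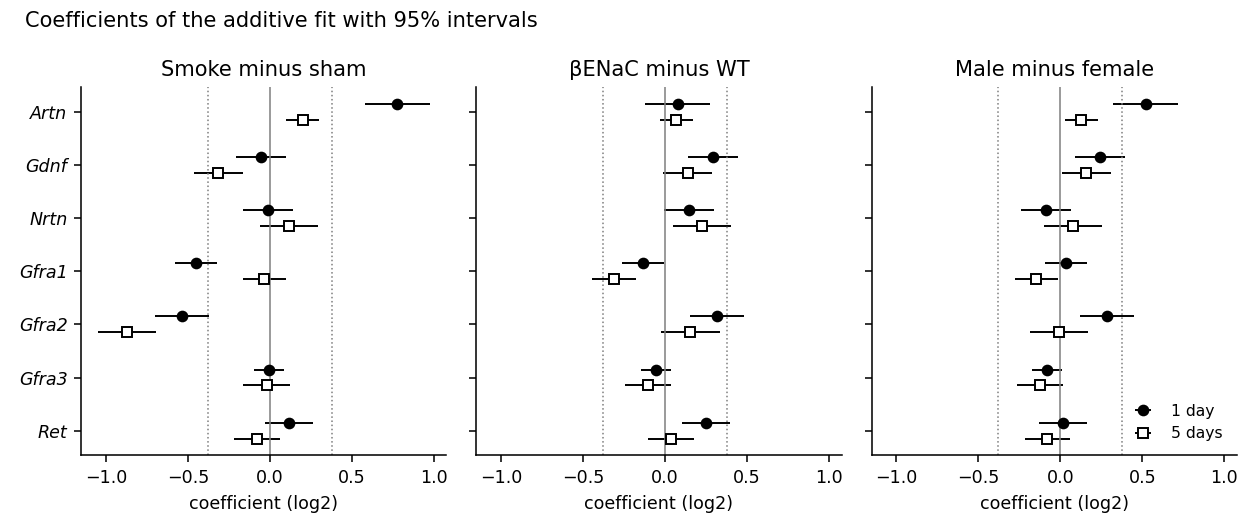
Coefficients of the additive fit on the log2 scale with 95% intervals for smoke minus sham (left), βENaC minus WT (middle) and male minus female (right), with filled circles for 1 day and open squares for 5 days. Dotted lines are the 1.3-fold threshold; the smoke coefficients of Artn at 1 day (0.78), Gfra1 at 1 day (-0.45) and Gfra2 at both durations (-0.54 and -0.87) lie beyond it, as does the sex coefficient of Artn at 1 day (0.52).

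Genotype differences gave no calls. None of the 7 was called at 1 day, where 1.55% of all rows were, and none at 5 days, where 2.53% were (limma, and the ordinary linear model gave the same counts); at an unadjusted p under 0.05 there were 4 and 2. By the adjusted p alone, 3 of 7 passed at 1 day (5.87% of all rows) and 1 at 5 days (10.2%). In βENaC against WT lungs at 1 day, Gdnf was 0.29 ± 0.08 higher (adjusted p = 0.0154), Gfra2 0.32 ± 0.08 higher (adjusted p = 0.0140) and Ret 0.25 ± 0.07 higher (SE, adjusted p = 0.0355, limma). These coefficients average over sham and smoke mice. Gfra2 averaged 8.04 in WT and 8.11 in βENaC sham mice, and 7.25 in WT and 7.82 in βENaC smoke mice. Its exposure by genotype term, given above, did not pass. Ret medians were 4.10 in 20 WT and 4.34 in 20 βENaC mice, and its adjusted p was 0.0545 without the 3 arrays of lowest correlation. Both medians were below 4.41, so the Ret difference lies largely between intensities in the background range. At 5 days Gfra1 was 0.31 ± 0.07 lower in βENaC lungs (SE, adjusted p = 0.00152, limma), with 20 WT mice from 6.56 to 7.71 (median 6.80) and 19 βENaC mice from 6.01 to 6.75 (median 6.58). No genotype by duration term passed, for the 7 genes (1 at an unadjusted p under 0.05) or for any row (0%).

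Sex differences appeared at 1 day. Artn was called higher in males, by 0.52 ± 0.10 (SE, adjusted p = 4.62e-04, limma), with 20 females from 3.33 to 4.26 (median 3.69) and 20 males from 3.37 to 5.58 (median 4.33). That coefficient averages over sham and smoke mice, and sham males and sham females had medians of 3.59 and 3.55. It was the 1 call among the 7 at 1 day, where 0.845% of all rows were called. Gdnf (0.24 ± 0.08, adjusted p = 0.0369) and Gfra2 (0.28 ± 0.08, adjusted p = 0.0228) were also higher in males by the p threshold (SE, limma), which 9.89% of rows passed, and the Gdnf value was 0.0620 after quantile normalization. At 5 days none of the 7 was called (0.198% of rows) and none passed by adjusted p (0.616% of rows), while 3 had an unadjusted p under 0.05. No sex by duration term passed among the 7 (0.654% of rows did, and 2 of the 7 had an unadjusted p under 0.05), with that of Artn at -0.39 ± 0.12 (SE, adjusted p = 0.0905, limma).

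Of the 28 terms that let the smoke response of the 7 genes depend on genotype or on sex, 0 passed (limma) and 2 had an unadjusted p under 0.05, those of Artn and Gfra2 given above. Few rows of any kind did: 0.00638% for each of the 2 terms at 1 day and 0% at 5 days. Smoke minus sham was also tested within each genotype, sex and duration. Artn was higher in all 8 of these strata, Gfra2 lower in all 8, and Gdnf and Gfra1 lower in 7 of 8. Of the 56 exact permutation tests 17 had an unadjusted p under 0.05 (7 for Gfra2, 5 for Artn, 3 for Gfra1 and 2 for Gdnf). After Benjamini-Hochberg adjustment over the 56, 0 passed, and the lowest adjusted p was 0.0556. The smallest p that 5 against 5 mice allow is 0.00794, so even a stratum with complete separation could not pass by itself. The count of 0 therefore does not show that smoke had no effect within strata.

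After the group means were removed, no correlation between a ligand gene and its co-receptor gene, or a co-receptor gene and Ret, passed over the mice. Gfra3 was below 4.41 in every mouse, Nrtn in all but 2 and Artn in all but 9. Ret had a median of 4.19 over the 79 mice, so it too was mostly below that value. The pairs with these genes therefore set intensities largely in the background range against others and could hardly show a relation between transcripts. Over 79 mice and 6 pairs, the largest correlation was that of Gdnf with Gfra1 (Pearson r = -0.24, permutation p = 0.0543, adjusted over 6 pairs 0.326; Spearman rho = -0.20, permutation p = 0.109, adjusted 0.614), and without the 2 mice farthest from the Gdnf median r was -0.23. Artn and Gfra3 had r = 0.09 (permutation p = 0.445, adjusted 0.869) and rho = 0.08 (permutation p = 0.495, adjusted 0.614), and r was 0.02 without the 2 farthest mice. Nrtn and Gfra2 had r = -0.05 and rho = -0.08, and the co-receptor genes with Ret had r between -0.05 and 0.09 and rho between -0.09 and 0.13. For these 4 pairs the adjusted permutation p was 0.614 or more, and r without the 2 farthest mice lay between -0.10 and 0.12.

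Other genes of the pathway gave 1 smoke call, where 1.08% of all rows were called at 1 day and 1.16% at 5 days. The remaining family ligand persephin (Pspn) and its co-receptor gene Gfra4 had intensities below 4.41 in every mouse and smoke coefficients between -0.06 and 0.03. Of 19 adaptors and effectors of RET, 0 were called at either duration, 5 were higher by adjusted p at 1 day (Gab2 0.22, Gab1 0.12, Ptpn11 0.11, Sos1 0.10 and Pik3ca 0.10, which link receptor kinases to the RAS and PI3 kinase pathways) and 0 at 5 days, where 5.03% and 3.17% of all rows were higher by adjusted p. Their median coefficient was 0.07 at 1 day against 0.01 over all rows, and -0.01 at 5 days against -0.0018. Of 11 ERK feedback and Ets genes, which report on ERK signalling, 0 were called at 1 day, with 1 higher by adjusted p (Dusp4, a phosphatase of ERK), and 1 at 5 days, with 3 lower by adjusted p where 3.37% of all rows were (the call was Egr1, an immediate early transcription factor, -0.53 ± 0.16, SE, adjusted p = 0.0378). Of 9 neurotrophins and their receptors none was called for smoke, with medians of -0.05 and -0.04.

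Of 19 autonomic and sensory neuron markers, 17 had mean intensities below 4.41, and the exceptions were Stmn2 (9.15) and Uchl1 (4.98). The list had a mean log2 intensity of 3.42 to 3.67 over the 79 mice. The 1 member called, Uchl1 (0.66 ± 0.08, SE, adjusted p = 1.50e-07 at 1 day, limma), encodes a ubiquitin hydrolase that pulmonary neuroendocrine cells and other epithelia also express. Uchl1 was also the 1 call among 8 neuroendocrine markers, of which 6 had mean intensities below 4.41. Of all rows, 1.08% were called for smoke at 1 day and 1.16% at 5 days. The 8 Schwann cell markers had list means of 4.41 to 4.87, and 0 were called at either duration. Their single means ran from 3.25 to 8.6, and 4 of the 8 were below 4.41. Markers in the background range could hardly show a change of their transcripts.

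Many genes that respond to AHR and NRF2 were called higher with smoke. Of 10 genes of the AHR battery 5 were called higher at 1 day and 4 at 5 days, where 0.488% and 0.581% of all rows were, with Cyp1a1, a cytochrome P450 and classic AHR target, at 4.11 ± 0.25 and 4.59 ± 0.17 (SE), and 1 of the 10 passed for exposure by duration (Ahrr, the AHR repressor, -0.32). Ahr itself had coefficients of -0.03 and -0.07 and passed at neither duration, and nor did Cyp1a2 (0.07 and 0.02). Of 9 NRF2 targets 7 were called higher at 1 day and 6 at 5 days (Me1 passed at neither, and Hmox1 not at 5 days). For exposure by duration 6 of the 9 passed, each with a smaller coefficient at 5 days, where 1.49% of all rows passed. Both lists were chosen with earlier results of these data known, so their counts are not evidence about either pathway. The part of either list in the Artn result was not tested. The rows most like Artn over the 16 group means were Slc1a4 (Pearson r = 0.97), Nploc4 (0.95), Nrg1 (0.94), Klhl29 (0.94) and Srxn1 (0.93), where Slc1a4 encodes a neutral amino acid transporter, Nrg1 the ErbB ligand neuregulin 1 and Srxn1 the antioxidant enzyme sulfiredoxin. Slc1a4 had smoke coefficients of 0.69 at 1 day and 0.17 at 5 days, and Srxn1 of 1.35 and 0.60.

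For the other genes the closest rows were Kdelr2 and Pcsk5 for Gdnf (Pearson r = 0.95 and 0.94), Tmem202 and Atp6v1e1 for Nrtn (0.89 and 0.87), Kctd13 and Notch2 for Gfra3 (0.87 and 0.83) and Isg20l2 and Calcr for Ret (0.86 and 0.85). These likenesses are descriptions over 16 group means picked from 31350 rows, with no test.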

How the data were processed

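Whole right-lung RNA of 79 mice was measured on Affymetrix moGene2.1 arrays, all run on the same plate. The authors deposited log2 intensities, made with Partek 6.6 by RMA, with probe signals corrected for background, sequence and GC content, quantile normalized and summarised by median polish, after quality control in Affymetrix Expression Console 1.4. The genome build is not given in the sources used here, and no scan date or detection call is given in the files. The number of arrays, and for genes of low intensity the array background, limit the precision. Rows were named from the accessions in the study's tables (2537 rows) and in RefSeq (19296), and 9517 have no name here. limma 3.58.1 in R 4.3.3 fitted genotype, exposure and sex at each duration (lmFit, eBayes), the interaction of each with duration over 79 mice, and exposure by genotype and by sex. Benjamini-Hochberg adjustment was over 31350 rows. Strata used exact two-sided permutation tests and relations 100000 permutations within groups (Python, scipy). The fits were tested on simulated data. Genes, lists and tests were chosen with earlier results of these data known. Groups came from sample titles. Named genes are the 7, the genes of the pathway and cell type lists so chosen, and the rows whose 16 group means correlate best with each gene. The alternatives were an ordinary linear model, array centring, quantile and cyclic loess normalization, a filter on the lowest 30% of rows, array weights, a trended robust prior, 1 fit over all mice, a call without the fold threshold, the replicate number as a block, and leaving out mice.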

Additional observations from a re-analysis of the deposited data

Results flagged for a closer look

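The smoke response of Artn and of Gfra1 differed between the durations (exposure by duration, limma, 79 mice). For Artn the 5-day coefficient was lower than the 1-day coefficient by 0.58 (-0.58 ± 0.12, SE), and for Gfra1 it was higher by 0.42 ± 0.10 (SE).

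In 9 of the 112 combinations of gene and group, 1 mouse stood apart from the rest of its group by Dixon's test at the 95% level, which chance gives in about 1 of 20 groups. For Artn it was the lowest WT sham male at 1 day (3.37 against 3.58 to 3.65). For Nrtn it was the lowest βENaC smoke female (3.65 against 3.92 to 3.99) and the highest WT smoke female (4.40 against 3.40 to 3.62) at 1 day. For Gfra1 it was the highest WT smoke female (7.71 against 6.63 to 6.82) and the lowest βENaC smoke female (6.23 against 6.61 to 6.75) at 5 days. For Gfra2 it was the highest WT sham male at 1 day (8.70 against 8.07 to 8.24) and, at 5 days, the lowest WT smoke female (6.36 against 7.28 to 7.56) and the lowest βENaC sham male (7.59 against 8.21 to 8.44). For Ret it was the highest βENaC smoke female at 5 days (4.61 against 4.05 to 4.15). The WT smoke female with 7.71 for Gfra1 is the mouse with 6.36 for Gfra2, and its array and that of the βENaC smoke female with 6.23 are among the 3 of lowest correlation with the other arrays.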

How the results depend on the processing

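Leaving out each of the 79 mice in turn changed none of the 9 counts of genes called or past a duration term, and the 7 coefficients called kept direction and call. Under the other alternatives 6 of the 7 did, and that of Gfra1 for exposure by duration was 0.40 and missed the threshold with exposure and duration as the only factors, which left 1 gene (Artn). With no fold threshold the counts were 3 for genotype and 3 for sex at 1 day, and 3 for exposure and 1 for genotype at 5 days. With the replicate number as a block, 3 genes were called for exposure at 1 day and 1 at 5 days, and no count changed; same-numbered mice of different groups did not deviate together (mean r = 0.0121 over 266 pairs, -0.00273 over 1098 other pairs), so the numbers do not pair the mice. Of the within-strata tests 9 passed after quantile normalization and 9 after cyclic loess, where groups of 5 leave the lowest adjusted p at 0.0556 on the deposited values, and 0 to 9 passed as each mouse was left out. The count of passing interaction terms was 0 to 1 over the mice left out.

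Coefficients near 0 changed sign. At 1 day the exposure coefficient of Gfra3 was 5.48e-05 with arrays centred, 0.00804 with array weights and 0.00222 without the 3 arrays of lowest correlation, that of Nrtn was 0.0201 with array weights and 0.0206 without the 3 arrays, and the sex coefficient of Gfra1 was -0.00393 after quantile and -0.00433 after loess normalization. With arrays centred, the 5-day sex coefficient of Gfra2 was 0.00207 and the genotype by duration term of Artn 0.00206 (0.0271 without the 3 arrays). With each mouse left out, the ranges that crossed 0 were -0.0238 to 0.0138 (Gfra3, exposure, 1 day), -0.0461 to 0.0137 (5 days) and -0.0417 to 0.0182 (by duration), -0.0492 to 0.0206 (Nrtn, exposure, 1 day), -0.0102 to 0.0451 (Ret, sex, 1 day), -0.0489 to 0.0187 (Gfra2, sex, 5 days), -0.0416 to 0.0400 (Artn, genotype by duration) and -0.0890 to 0.0067 (Artn, exposure by sex, 5 days). The causes were not tested. Of the 7 genes 6 passed the filter on low values, and Gfra3 did not. The planned use of another row per gene could give no value, since each gene had 1 row.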
